A study of Mus musculus with 1646 samples.

Results

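Fibroblasts that the deposited annotation calls cluster 7 were compared with those it calls cluster 5, in the colon of adult male mice. The study places cluster 7 at the base of the crypt and cluster 5 between the base and the middle. The sample labels carry the cluster number only, no position was measured in these counts, and since the authors grouped the cells on these counts, no test here is independent of how the cells were grouped. Each cluster's raw counts were added up within each reporter strain that held 10 or more cells of both, and the sums were paired within strain. This gave 630 of the 1646 colon cells. The 2 plates of the Acta2GFP strain gave 38 and 89 cells of cluster 7 and 36 and 92 of cluster 5, the PdgfraGFP strain 15 and 64 cells, and the PdgfrbGFP strain 76 and 220 cells. The fourth strain, Cspg4dsRED, had 5 and 13 cells and entered only as an alternative.

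All mice were 10 to 20 weeks old and on the C57Bl6/J background, no treatment is named, and single cells were sorted into 384-well plates and sequenced with SmartSeq2, which reads whole transcripts. The strains differ in what was sorted. Acta2GFP and PdgfrbGFP are transgenes that report the smooth muscle actin and PDGF receptor beta promoters, and PdgfraGFP carries a nuclear H2B-GFP in the *Pdgfra* locus itself. Tissue of the Acta2GFP mice was also treated with elastase, and CD31-positive cells were left out of every sort. No label names the mouse of a cell, so a strain counts as 1 sample, and p-values measure the spread between strains or plates, which may be technical.

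Crypt fibroblasts lie against the epithelial stem cells and release the signals that hold them in place. WNT ligands and R-spondins favour stem cell renewal at the base, BMP ligands favour differentiation towards the surface, and secreted antagonists such as gremlin 1 keep BMP activity low around the base. Fibroblasts marked by CD34, PI16 and DPP4 are known from many organs as cells of the adventitia and deep connective tissue that make elastic fibre and matrix proteins.

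Both clusters were fibroblasts by their transcripts. *Col1a1*, a chain of type I collagen, had levels of 2025, 2111 and 2303 in cluster 7 and 1747, 2307 and 1972 in cluster 5, as the mean over cells of counts scaled to 500000 per cell and in the order Acta2GFP, PdgfraGFP and PdgfrbGFP, which is the unit and order of every level given here. *Pdgfra*, the PDGF receptor of fibroblasts, had 190, 235.7 and 187.8 in cluster 7 and 268.8, 176.1 and 262.5 in cluster 5, and the ranges of these strains overlapped for both genes. The summed level of 10 mural markers was 62.96 to 81.01 in cluster 7 and 66.9 to 116.8 in cluster 5, and that of 12 immune markers was 7.52 to 12.9 and 5.92 to 18.4. Of 7 mesothelial markers, *Msln*, *Upk3b* and *Bnc1* were at 0, and the list summed to 0.399 to 5.10 and 4.96 to 17.4. The 11 glial and neuronal markers summed to 15.4 to 20.8 in cluster 7 and 4.87 to 11.2 in cluster 5, with *Foxd3* at 0, and their part in the results was not tested. Endothelial markers summed to 158.8 to 288.5 and 151.99 to 198.6, epithelial markers to 15.1 to 67.3 and 19.1 to 42.5, markers of interstitial cells of Cajal to 22.3 to 45.1 and 18.6 to 48.2, and adipocyte markers to 60.9 to 110 and 89.04 to 130.9. Endothelial and glial sums were higher in cluster 7 in each strain, although 8 of 13 and 6 of 11 members had the lower mean there. Mesothelial and adipocyte sums were lower in cluster 7 in each strain. The part of these markers in the results was not tested.

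The clusters also differed in depth. Median counts on genes per cell were 228006, 442003 and 405198 in cluster 7 and 190402, 266955 and 289513 in cluster 5, higher in cluster 7 in all 3 strains. The spike-in RNAs took a median of 0.840 to 1.14% of counts in cluster 7 and 1.05 to 1.44% in cluster 5. Immediate early genes, which are switched on when tissue is dissociated, were lower in cluster 7: the mean of log2(level + 1) over 16 such genes was 5.34, 4.77 and 5.93 in cluster 7 and 6.09, 5.57 and 6.72 in cluster 5. The same order held on all 5 plates that carried 10 or more cells of both clusters, as the plot of scores by plate shows. The part of depth and of these genes in the results below was not tested.

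**Figure D1:**
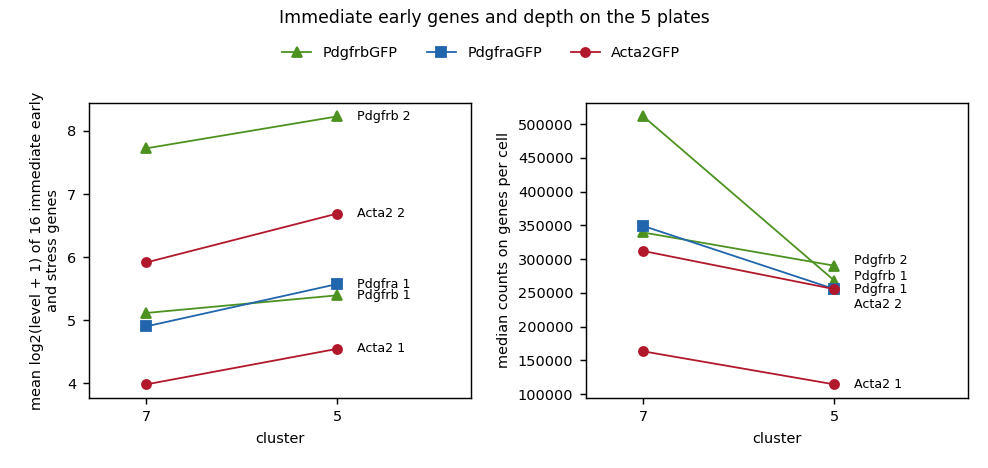
Immediate early genes and depth on the 5 plates with 10 or more cells of both clusters. Left, the mean over cells of log2(level + 1) of 16 immediate early and stress genes. Right, the median counts on genes per cell. Each line is a plate and joins cluster 7 to cluster 5, with the strain by colour and symbol and plates numbered within a strain in the order of their labels. On every plate the score was lower and the depth higher in cluster 7, and PdgfrbGFP plate 2 had the highest scores, 7.72 and 8.23.

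Across 15555 genes tested with edgeR's quasi-likelihood test on the 3 strain pairs, 0 genes (0%) were called higher and 0 (0%) lower in cluster 7 at an adjusted p under 0.05. The lowest adjusted p was 0.126, and 1115 genes had an unadjusted p under 0.05, 487 of them higher and 628 lower in cluster 7. DESeq2 called 0.705% higher and 2.12% lower on the same sums, as shares of the genes it gave an adjusted p. With limma on the mean of cells, 22 and 25 genes were called. Among the 5165 genes with a mean level of 20 or more, edgeR called 43 (0.833%) higher and 79 (1.53%) lower in the same 3 pairs. This limit was chosen after the data were seen.

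The same comparison on the 5 plates, paired within plate, tested 13844 genes and called 68 (0.491%) higher and 72 (0.52%) lower in cluster 7. Below, a gene is called higher or lower from this plate test, fold changes are log2 of cluster 7 over cluster 5 on plates, and the fold change over strains is given beside it where stated. The 2 Acta2GFP plates, and the 2 PdgfrbGFP plates, may hold cells of the same mouse, so these p-values can be too small. The calls also depended on single plates: with plates numbered within a strain in the order of their labels, 24 genes were higher and 10 lower without PdgfrbGFP plate 1, 30 and 32 without PdgfrbGFP plate 2, 57 and 72 without the PdgfraGFP plate, 27 and 14 without Acta2GFP plate 1, and 31 and 18 without Acta2GFP plate 2. In each of the 5 fits without a plate, 20 of the 68 and 8 of the 72 genes were called.

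Direction was shared between the fits. All 68 and all 72 genes had the same sign over strains, where 66 and 72 of them had an unadjusted p under 0.05. The levels of the 3 strains did not overlap between the clusters for 62 of the 68 and 66 of the 72. Over all genes tested on strains, 6.43% did not overlap with cluster 7 higher and 8.43% with cluster 7 lower. Since plates and strains hold the same cells, this is no independent support.

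**Figure D2:**
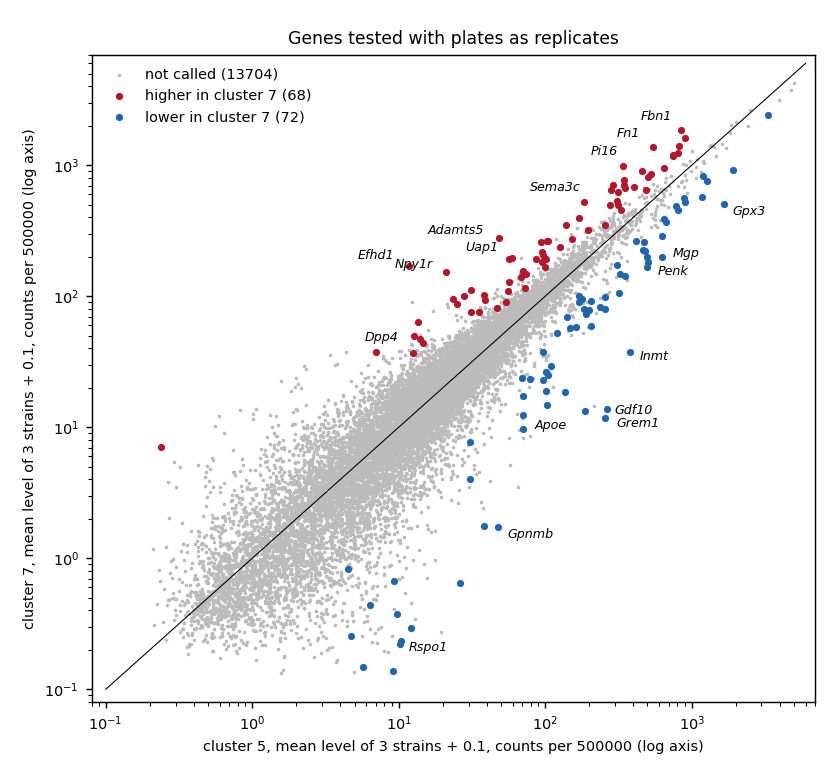
Mean level of each of the 13844 genes tested on plates in cluster 5 (x axis) and cluster 7 (y axis), averaged over the 3 strains, in counts per 500000 plus 0.1 on log axes. Red points are the 68 genes called higher in cluster 7, blue points the 72 called lower, grey points the rest, and the line marks equal levels. *Efhd1* and *Npy1r* lie far above the line and *Inmt*, *Gdf10* and *Grem1* far below it.

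*Efhd1* had the largest fold change of the genes higher in cluster 7 with a level of 20 or more in one cluster. It encodes a calcium-binding mitochondrial protein and lies on chromosome 1 from 87264363 to 87310839 (plus strand) of GRCm38. Its levels were 169.3, 156.4 and 185.7 in cluster 7 and 10.2, 9.11 and 15.4 in cluster 5. The strains were close to each other within a cluster and about 14.7-fold apart between the clusters in their means (log2 fold change 4.40 ± 0.69 (SE), adjusted p = 0.0314). Over strains the fold change was 3.54 ± 0.26 with an adjusted p of 0.126. After each cell was thinned to 50000 counts, *Efhd1* was counted in 73.6% of cluster 7 cells (95% interval 67.3 to 79.3), in 21.5% of cluster 5 cells (17.6 to 25.7) and in 7.14% of cluster 4 cells (3.48 to 12.7). Cluster 4, which the study calls mural cells, stands for the background. Without thinning the shares were 86.5% in cluster 7 and 55.3% in cluster 5. The call on plates was kept in 1 of the 5 fits without a plate.

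*Npy1r*, a receptor of neuropeptide Y, had levels of 180, 111.4 and 171.01 in cluster 7 and 33.9, 7.18 and 21.4 in cluster 5 (log2 fold change 3.29 ± 0.34 (SE), adjusted p = 0.00615), and was called in each of the 5 fits without a plate. Every strain was lower in cluster 5, and the PdgfraGFP strain had the lowest level there. *Adamts5*, a protease that cuts aggrecan and versican, had 265.9, 298.8 and 270 in cluster 7 and 54.7, 38.1 and 53.3 in cluster 5 (log2 fold change 2.68 ± 0.33 (SE), adjusted p = 0.0108). *Dpp4*, a cell surface peptidase, had 37.01, 33.9 and 41.04 in cluster 7 and 4.81, 11.8 and 3.91 in cluster 5 (log2 fold change 3.71 ± 0.43 (SE), adjusted p = 0.00902). The strain levels of *Adamts5* and *Dpp4* did not overlap between the clusters. *Tmem100*, a small membrane protein, had 208.8, 153.1 and 215.2 in cluster 7 and 56.4, 50.9 and 62.02 in cluster 5 (log2 fold change 1.96 ± 0.17 (SE), adjusted p = 0.00255). *Cmah*, the enzyme that makes N-glycolylneuraminic acid, had 105.2, 93.8 and 104.9 in cluster 7 and 28.3, 25.5 and 29.6 in cluster 5 (log2 fold change 2.07 ± 0.20 (SE), adjusted p = 0.00438), and *Nhsl1*, a regulator of actin-based movement, 135.4, 75.2 and 77.1 in cluster 7 and 29.5, 18.2 and 22.5 in cluster 5 (log2 fold change 2.27 ± 0.24 (SE), adjusted p = 0.00639). *Tmem100*, *Cmah* and *Nhsl1* were called in each of the 5 fits without a plate, with cluster 5 lower in each strain.

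The other leading genes of cluster 7 covered several roles. *Ptgs1*, the constitutive cyclooxygenase of prostaglandin synthesis, had 145.6, 79.1 and 110 in cluster 7 and 30.4, 26.8 and 36.7 in cluster 5 (log2 fold change 2.07 ± 0.25 (SE), adjusted p = 0.0105). Its inducible counterpart *Ptgs2* had mean levels of 23.3 against 33.8 and was not called (adjusted p = 0.9801), and *Ptgs1* was the called member among the 12 tested genes of prostaglandin synthesis and reception. The study lists *Ptgs1* among genes enriched in the *Tnc*-positive, *Cd34*-negative fibroblasts under the epithelium of colon and bladder. The difference given here covers clusters 7 and 5 only. *Il13ra1*, a receptor subunit for interleukin 13, had mean levels of 49.6 against 12.7, *Adgrg2*, an adhesion G protein-coupled receptor, 75.3 against 30.9, and *Slc6a6*, the taurine transporter, 47.1 against 13.9. *Sntb1*, a syntrophin of the dystrophin complex, had 36.9 against 12.4. Regulators of transcription in this group were *Lmo2* with 64.01 against 13.5 and *Nfkb2* with 43.8 against 14.5, and the uncharacterized *1700019D03Rik* had 87.2 against 24.8. *Nfkb2* differed less over strains (1.26 ± 0.64) than over plates (1.81 ± 0.30).

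**Figure D3:**
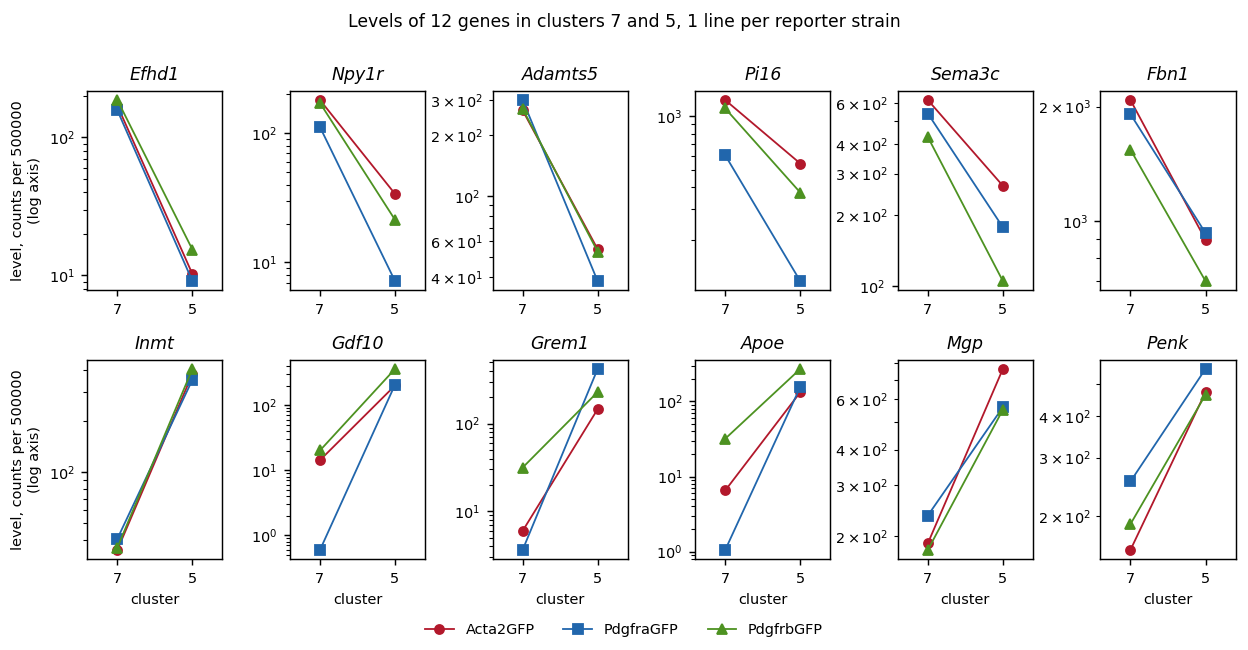
Levels of 12 genes in cluster 7 and cluster 5 in counts per 500000 (log axes), with 1 line per reporter strain. In the upper row each of the 3 lines slopes down from cluster 7 to cluster 5, and in the lower row each slopes up. The ranges of the strains do not overlap between the clusters for any of the 12 genes.

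Of 19 genes of CD34-associated and adventitial fibroblasts, all tested, 12 were called higher in cluster 7, 0 lower and 7 neither, and their median fold change was 1.16 beside -0.12 over all genes tested. Over all genes tested on plates, 0.491% were called higher and 0.52% lower, which stands beside each list count given here. The CD34-associated list was chosen with results of these data known. *Pi16*, a peptidase inhibitor of adventitial fibroblasts, had 1238, 602 and 1110 in cluster 7 and 541, 116.7 and 370 in cluster 5 (log2 fold change 1.62 ± 0.22 (SE), adjusted p = 0.0154). Each strain was lower in cluster 5, though cluster 5 of the Acta2GFP strain approached cluster 7 of the PdgfraGFP strain. *Sema3c*, a secreted guidance cue, had 616, 540 and 429.1 in cluster 7 and 266.4, 177.7 and 105.02 in cluster 5 (log2 fold change 1.65 ± 0.17 (SE), adjusted p = 0.00615). *Ackr3*, a receptor that scavenges the chemokine CXCL12, had 762, 641 and 703 in cluster 7 and 330, 231.3 and 304.2 in cluster 5 (log2 fold change 1.23 ± 0.09 (SE), adjusted p = 0.00215), and *Anxa3*, a membrane-binding annexin, 259.1 ± 43.2 in cluster 7 and 94.1 ± 41.4 in cluster 5 (SD, n = 3 strains). The glycan-anchored *Ly6c1* had 271.7 ± 21.2 in cluster 7 and 151.3 ± 11.9 in cluster 5, but reads of the near-identical *Ly6c2* could be split with it.

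*Cd34* itself differed little. Its levels were 1544, 1051 and 1285 in cluster 7 and 1174, 878 and 981 in cluster 5, higher in cluster 7 in each strain with overlapping ranges, and it was not called (log2 fold change 0.32 ± 0.08 (SE), adjusted p = 0.135). *Ly6a*, *Clec3b*, *Dpt* and *Pcolce2* of the same list were also not called, with mean levels of 715 against 543, 195.6 against 190, 1040 against 1217 and 390.6 against 289.2. *Cd34* was counted in 100% of thinned cluster 7 cells and 99.5% of cluster 5 cells.

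Enzymes that make activated sugars were among the genes higher in cluster 7. They were grouped after their values were seen, from no fixed list, and were not tested as a group. *Gfpt2*, the entry enzyme of hexosamine synthesis, had 563, 463.005 and 914 in cluster 7 and 227.1, 246.96 and 374.3 in cluster 5 (log2 fold change 1.34 ± 0.10 (SE), adjusted p = 0.00215). *Uap1*, which makes UDP-N-acetylglucosamine, had 165.6, 207.9 and 212.2 in cluster 7 and 55.9, 50.8 and 71.8 in cluster 5 (log2 fold change 1.77 ± 0.13 (SE), adjusted p = 0.00215). *Ugp2*, which makes UDP-glucose, had 230, 205.4 and 213.2 in cluster 7 and 107.9, 84.8 and 91.4 in cluster 5 (log2 fold change 0.99 ± 0.12 (SE), adjusted p = 0.0108). All 3 enzymes were higher in cluster 7 in each strain without overlap. *Has1*, a synthase that joins such sugars into hyaluronan, had 96.3 against 45.01 and was not called (adjusted p = 0.424).

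*Gfpt2* and *Uap1* were among the genes called in each fit without a plate, as were *C1qtnf3* and *Crispld2* on the other side. The 250 bases before the start of these 4 genes are shown because, in each direction, they had the largest fold changes among such genes with a single RefSeq promoter entry (GRCm38.p6) clear of the annotated gene. Genes of a set-aside chromosome were left out of this choice. Capitals mark matches on either strand to the TATA box (TATAAA), the AP-1 motif (TGANTCA) or the TEAD motif (GGAATG), and each sequence runs 5′ to 3′ on the gene's strand. *Gfpt2* holds an AP-1 match towards the 5′ end of the window. *C1qtnf3* holds a TATAAA match 6 bases and a TEAD match 96 bases before it, and *Uap1* and *Crispld2* hold no match. Of 27025 genes with a promoter entry, 12.97% hold TATAAA, 6.87% the AP-1 motif and 12.6% the TEAD motif in the same window, so a match is a description only. Too few of the 140 called genes, 98, had an entry for shares over the called genes to be given.
Uap1, chr1:170174965-170175214, minus strand: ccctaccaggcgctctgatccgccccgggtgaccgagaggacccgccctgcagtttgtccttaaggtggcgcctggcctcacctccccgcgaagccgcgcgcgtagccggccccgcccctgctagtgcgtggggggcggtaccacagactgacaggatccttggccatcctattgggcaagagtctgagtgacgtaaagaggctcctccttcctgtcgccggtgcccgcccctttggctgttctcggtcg
Gfpt2, chr11:49793905-49794154, plus strand: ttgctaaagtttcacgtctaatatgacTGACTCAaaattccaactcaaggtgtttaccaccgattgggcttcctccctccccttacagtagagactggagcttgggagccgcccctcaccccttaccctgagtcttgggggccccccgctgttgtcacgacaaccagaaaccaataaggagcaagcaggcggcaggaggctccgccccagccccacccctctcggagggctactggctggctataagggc
C1qtnf3, chr15:10952082-10952331, plus strand: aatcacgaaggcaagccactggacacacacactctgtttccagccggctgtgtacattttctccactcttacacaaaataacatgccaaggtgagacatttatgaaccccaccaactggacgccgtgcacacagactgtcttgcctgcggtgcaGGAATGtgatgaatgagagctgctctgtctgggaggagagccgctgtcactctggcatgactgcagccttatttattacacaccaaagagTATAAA
Crispld2, chr8:119992188-119992437, plus strand: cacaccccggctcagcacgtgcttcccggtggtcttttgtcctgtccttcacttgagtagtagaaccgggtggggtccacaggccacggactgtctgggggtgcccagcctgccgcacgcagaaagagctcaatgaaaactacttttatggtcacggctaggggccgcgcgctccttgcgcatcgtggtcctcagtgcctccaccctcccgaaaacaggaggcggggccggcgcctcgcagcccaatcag

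The matrix differed by component. Of 20 tested genes of elastic fibres, fibulins and lysyl oxidases, 7 were called higher and 1 lower in cluster 7, beside 0.491% and 0.52% of all genes. The median fold change of the list was 0.04, and its members *Fbn1* and *Mfap5* also belong to the CD34-associated list. *Fbn1*, which forms the microfibril backbone, had 2080, 1911 and 1542 in cluster 7 and 895, 933 and 698 in cluster 5 (log2 fold change 1.16 ± 0.09 (SE), adjusted p = 0.00215). *Mfap5*, which binds these microfibrils, had 941, 684 and 678 in cluster 7 and 421.3, 292.1 and 317.5 in cluster 5 (log2 fold change 1.06 ± 0.09 (SE), adjusted p = 0.00248), and both were called in each fit without a plate. *Emilin2* had mean levels of 264.9 against 102.2, *Efemp1* 908 against 460, *Fbln2* 1234 against 803, and the lysyl oxidases *Loxl1* and *Loxl2*, which cross-link collagen and elastin, 653 against 490 and 81.7 against 46.5. The called member in the other direction was *Fbln1* (1044, 587 and 1143 in cluster 7 and 2285, 1338 and 2112 in cluster 5, log2 fold change -0.95 ± 0.11 (SE), adjusted p = 0.00847), and *Eln* itself, the elastin gene, had 160 against 212.4 and was not called.

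*Fn1*, the fibronectin gene, had 1077, 1705 and 1330 in cluster 7 and 453.7, 650 and 535 in cluster 5 (log2 fold change 1.33 ± 0.10 (SE), adjusted p = 0.00215), with no overlap between the clusters. *Postn*, a matricellular protein that binds it, had 681.9, 769 and 562 in cluster 7 and 335.2, 401.9 and 316.2 in cluster 5 (log2 fold change 0.94 ± 0.09 (SE), adjusted p = 0.00546), and *Nid1* of the basement membrane had 857 ± 20.2 in cluster 7 and 526 ± 86.01 in cluster 5. *Timp3*, an inhibitor of metalloproteinases, had 626 ± 116.5 in cluster 7 and 313.5 ± 35.2 in cluster 5. Of 19 tested basement membrane genes, *Nid1* was the called one, with a median of -0.16 over the list. The 7 tested fibrillar collagen genes held 0 genes called higher and 0 lower by edgeR. DESeq2 on the plate sums called 0 of them, beside 6.06% of genes with an adjusted p. The strain test gave 2 an unadjusted p under 0.05, beside 7.17% of all genes tested. *Col3a1* had mean levels of 2631 against 2511 and *Col1a2* 1764 against 1832.

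Of 10 tested small leucine-rich proteoglycans, which coat collagen fibrils, 4 were called lower in cluster 7, 0 higher and 6 neither, with a median of -0.39. Over all genes tested, 0.52% were called lower. *Podn* had 89.4, 70.997 and 78.4 in cluster 7 and 309.04, 194.2 and 262.03 in cluster 5 (log2 fold change -1.41 ± 0.19 (SE), adjusted p = 0.0161). *Dcn*, the decorin gene, had 3076, 2070 and 2155 in cluster 7 and 4171, 2836 and 2905 in cluster 5 (log2 fold change -0.40 ± 0.07 (SE), adjusted p = 0.0365), and *Lum*, the lumican gene, 1044, 804 and 653 in cluster 7 and 1590, 965 and 1032 in cluster 5 (log2 fold change -0.55 ± 0.06 (SE), adjusted p = 0.00943). For *Dcn* and *Lum* each strain was lower in cluster 7, but the ranges overlapped. *Fmod*, among those called lower, had mean levels of 0.135 against 10.3, so it entered the test mainly through its counts in cluster 5. *Bgn* (1462 against 1626) and *Ogn* (417.1 against 438.4) were not called. *Aspn*, the asporin gene, had the higher mean in cluster 7 (520 against 350) and was not called. Among the 11740 genes with 300 or more counts in a cell, the highest value was 1.96 counts per exonic base, so counts of the most abundant genes may be capped. Whether this touches the fold changes of collagens or *Dcn* was not tested.

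On the other side, *Inmt*, an N-methyltransferase of indole amines, was among the genes called lower in cluster 7. It lies on chromosome 6 from 55170626 to 55175043 (minus strand), and its levels were 34.9, 40.6 and 36.1 in cluster 7 and 381.2, 352.6 and 408.3 in cluster 5 (log2 fold change -3.40 ± 0.27 (SE), adjusted p = 0.00230). The strains lay close together within a cluster, and the means of the clusters differed by 10.2-fold. Over strains the fold change was -3.08 ± 0.20 with an adjusted p of 0.126, a minimum that other genes share, and the gene was called in each fit without a plate. It was counted in 47.7% of cluster 7 cells (95% interval 40.97 to 54.5), in 83.3% of cluster 5 cells (79.4 to 86.7) and in 12.1% of cluster 4 cells (7.24 to 18.7). Its mean level was 9.92, 2.68 and 9.91 in clusters 1, 6 and 2, so of the fibroblast clusters it was highest in cluster 5.

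Signals of the crypt niche were among the genes lower in cluster 7. *Grem1*, the BMP antagonist gremlin 1, had 5.98, 3.63 and 31.5 in cluster 7 and 146.04, 420 and 228.98 in cluster 5 (log2 fold change -4.71 ± 0.83 (SE), adjusted p = 0.0473). Every cluster 7 sum was below every cluster 5 sum, and the thinned shares of cells with a count were 40.5% and 63.7%, beside 15% in cluster 4. *Rspo1*, which strengthens WNT signals, had 0.00863, 0.138 and 0.220 in cluster 7 and 1.97, 14.6 and 13.8 in cluster 5 (log2 fold change -6.31 ± 1.10 (SE), adjusted p = 0.0450), a low level throughout with 2, 2 and 14 counts in the cluster 7 sums, and its shares were 2.27% and 8.02%. With so few counts there, it entered the test mainly through cluster 5. *Penk*, which encodes the enkephalin precursor, had 158.3, 254.3 and 189.3 in cluster 7 and 472.4, 555 and 463.8 in cluster 5 (log2 fold change -1.29 ± 0.16 (SE), adjusted p = 0.0128). The calls of *Grem1* and *Rspo1* were kept in 0 and 0 of the 5 fits without a plate, that of *Penk* in 2.

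Of 13 tested niche genes, these 3, with the low *Rspo1* among them, were the ones called, all lower in cluster 7, beside 0.52% of all genes. The median over the list was -0.49. *Rspo3* had 22.8, 5.43 and 26.8 in cluster 7 and 24.3, 19.2 and 23.04 in cluster 5 and was not called (adjusted p = 0.909). *Cd81*, *Ackr4*, *Il33* and *C3*, also used to mark such cells, had mean levels of 580 against 528, 230 against 271.1, 236.1 against 206.8 and 1426 against 1349 and were not called.

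*Gdf10*, a BMP family ligand also named BMP3B, had 14.3, 0.595 and 20.1 in cluster 7 and 200.9, 206.7 and 361.1 in cluster 5 (log2 fold change -4.99 ± 0.61 (SE), adjusted p = 0.0108). Cluster 7 was lower in each strain, and lowest in the PdgfraGFP strain. Among 8 tested BMP ligands it was the called one, and the median of the list was -0.77. *Bmp4*, another BMP ligand, had 135.6, 122.7 and 164.7 in cluster 7 and 379.4, 283.5 and 253.3 in cluster 5, lower in cluster 7 in each strain, but was not called (log2 fold change -1.09 ± 0.21 (SE), adjusted p = 0.0654). *Bmp2*, *Bmp5* and *Bmp7*, ligands of the crypt surface, had mean levels of 7.33 against 14.99, 4.16 against 10.9 and 3.41 against 2.16. Among 9 tested antagonists, *Grem1* was lower and *Fstl1*, a follistatin-like protein, higher, with 2104, 1096 and 1607 in cluster 7 and 1117, 646 and 926 in cluster 5 (log2 fold change 0.74 ± 0.08 (SE), adjusted p = 0.00764).

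WNT genes moved less evenly. *Wnt2*, a WNT ligand, had 90.9, 118.2 and 63.8 in cluster 7 and 21.4, 3.49 and 11.8 in cluster 5. It was higher in cluster 7 in each strain without overlap and by 7.44-fold in the means, but missed the threshold (log2 fold change 2.46 ± 0.45 (SE), adjusted p = 0.0551). It was counted in 58.2% of cluster 7 cells (95% interval 51.4 to 64.8), in 23.1% of cluster 5 cells (19.2 to 27.4) and in 0.714% of cluster 4 cells (0.0181 to 3.92). *Wnt2b* had 18.2, 58.01 and 14.4 in cluster 7 and 23.1, 75.4 and 28.5 in cluster 5 and *Wnt5a* mean levels of 17.04 against 33.5, and of 8 tested ligands edgeR called 0 higher and 0 lower. DESeq2 on the plate sums called 3 of the 12 ligands in the list, beside 6.06% of genes with an adjusted p. Over strains 3 had an unadjusted p under 0.05, beside 7.17% of all genes tested. *Sfrp1*, a secreted WNT inhibitor, was lower in cluster 7 with 79.4, 112.96 and 105.03 in cluster 7 and 321.2, 142.8 and 300.9 in cluster 5 (log2 fold change -1.53 ± 0.21 (SE), adjusted p = 0.0154). The receptors *Fzd1* and *Fzd4* had 77.2 against 144.5 and 53.1 against 52.1 and were not called.

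Of 3 hedgehog co-receptors, 2 were called lower in cluster 7, with *Cdon* called on few counts. *Gas1*, which helps bind the ligand, had 62.3, 34.8 and 76.9 in cluster 7 and 130.8, 150 and 202.7 in cluster 5 (log2 fold change -1.38 ± 0.16 (SE), adjusted p = 0.00908), and *Cdon*, another co-receptor, mean levels of 0.336 against 6.25 (adjusted p = 0.0390). The *Cdon* sums of cluster 7 held 3, 0 and 18 counts, so its test passed the filter through cluster 5, and its call was kept in 0 of the 5 fits without a plate. *Gas1* and *Cdon* were the 2 called of 11 tested pathway genes, beside 0.52% of all genes called lower. The median of the pathway genes was -1.07. The third co-receptor, *Boc*, had 35.7 against 104.3, and the target genes *Ptch1*, *Gli1* and *Hhip* had 38.7 against 71.7, 28.6 against 36.2 and 20.1 against 77.9, none of them called (adjusted p 0.160, 0.345, 0.744 and 0.274).

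Of 9 tested genes of the IGF system, 3 were called lower in cluster 7, beside 0.52% of all genes. *Igf1*, the growth factor, had 104.9, 118.04 and 77.3 in cluster 7 and 213.2, 147.002 and 147.5 in cluster 5 (log2 fold change -0.78 ± 0.13 (SE), adjusted p = 0.0347). Its binding proteins *Igfbp4* and *Igfbp7* had 523 ± 73.5 in cluster 7 and 901 ± 81.96 in cluster 5 and 456.95 ± 84.5 in cluster 7 and 802 ± 40.7 in cluster 5, while *Igfbp6* (801 against 669) and *Igfbp5* (194.9 against 67.9) were not called. *Angptl2*, a secreted angiopoietin-like protein, had 371.3 ± 67.6 in cluster 7 and 669 ± 185.9 in cluster 5 (log2 fold change -0.86 ± 0.09 (SE), adjusted p = 0.00709).

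Of 14 tested complement genes, 1 was called higher and 1 lower in cluster 7, beside 0.491% and 0.52% of all genes. The higher gene, *Cd55*, also belongs to the CD34-associated list. *Cd55*, which shields cells from complement, was higher in cluster 7 with 918, 547 and 673 in cluster 7 and 496, 257.4 and 284.2 in cluster 5 (log2 fold change 1.06 ± 0.12 (SE), adjusted p = 0.00759). *C4b*, a complement component, was lower with 33.1, 65.3 and 137.6 in cluster 7 and 132.2, 229.4 and 235.7 in cluster 5 (log2 fold change -1.46 ± 0.25 (SE), adjusted p = 0.0414), though reads of the near-identical *C4a* could be split with it. The other 12 of 14 tested complement genes were not called, among them *C3* and *Serping1* (1365 against 1717).

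Further genes lower in cluster 7 have roles in lipid, redox or steroid metabolism, a grouping made after their values were seen and not tested. *Apoe*, the lipid carrier apolipoprotein E, had 6.52, 1.05 and 31.9 in cluster 7 and 132.7, 155.8 and 271.1 in cluster 5 (log2 fold change -4.15 ± 0.58 (SE), adjusted p = 0.0186). *Gpx3*, a secreted glutathione peroxidase, had 488, 498 and 522 in cluster 7 and 1875, 1504 and 1583 in cluster 5 (log2 fold change -1.59 ± 0.13 (SE), adjusted p = 0.00248). *Fmo2*, a flavin monooxygenase, had 242.4, 348.6 and 273.4 in cluster 7 and 654, 551 and 679 in cluster 5 (log2 fold change -1.19 ± 0.09 (SE), adjusted p = 0.00215). All 3 were higher in cluster 5 in each strain without overlap, and *Gpx3* and *Fmo2* were called in each fit without a plate. *Hsd11b1*, which activates glucocorticoids, had 82.8 ± 18.1 in cluster 7 and 236.3 ± 25.4 in cluster 5, and *Selenop*, a selenium carrier, 386.1 ± 15.4 in cluster 7 and 651 ± 41.8 in cluster 5.

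*Mgp*, an inhibitor of calcification, had 188.7, 235.8 and 178.9 in cluster 7 and 763, 562 and 550 in cluster 5 (log2 fold change -1.62 ± 0.18 (SE), adjusted p = 0.00759), and *Spon2*, a matrix protein of the spondin family, 574, 541 and 602 in cluster 7 and 1291, 1010 and 1261 in cluster 5 (log2 fold change -1.15 ± 0.13 (SE), adjusted p = 0.00831). *C1qtnf3*, a secreted C1q/TNF-related protein whose promoter is shown above, had 100, 138.3 and 77.5 in cluster 7 and 287.2, 364.2 and 304.3 in cluster 5 (log2 fold change -1.92 ± 0.15 (SE), adjusted p = 0.00230), and *Crispld2*, a secreted glycoprotein, 152.5, 159.2 and 233.6 in cluster 7 and 496, 467.9 and 556 in cluster 5 (log2 fold change -1.48 ± 0.16 (SE), adjusted p = 0.00659). None of these 4 genes overlapped between the clusters. Of receptors, *Adcyap1r1*, which binds the neuropeptide PACAP, had 18.5 ± 10.95 in cluster 7 and 135.8 ± 46.7 in cluster 5, and *Gucy1a1*, a subunit of the nitric oxide receptor, 14.8 ± 5.59 in cluster 7 and 103.2 ± 34.001 in cluster 5. *Gpnmb* had 1.63 against 47.6, *Art4* 0.549 against 26.1, *Steap4* 1.66 against 38.1, *Gpm6b* 3.96 against 30.6, *Galnt15* 9.59 against 70.7, *Tmem204* 26.1 against 100.8, *Fgl2* 17.3 against 70.4, *Tmem176a* 22.7 against 96.4 and *Fxyd6* 12.3 against 70.5. These 9 genes were called, in 0 to 2 of the 5 fits without a plate. *Art4*, near 0 in cluster 7, entered the test mainly through cluster 5.

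**Figure D4:**
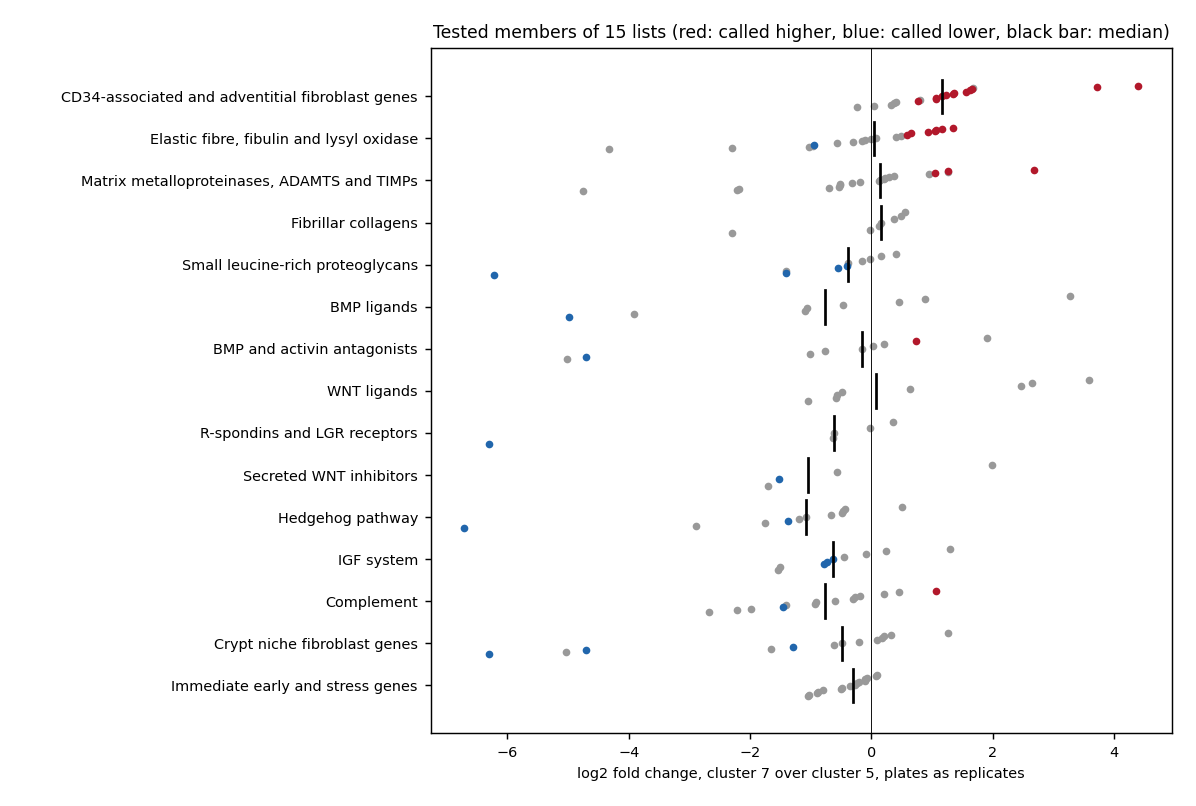
Log2 fold changes of cluster 7 over cluster 5 on plates for the tested members of 15 gene lists, one point per gene. Red points were called higher, blue points lower, grey points neither, and a black bar marks the median of the list. CD34-associated genes lie to the right with 12 of 19 called higher, beside 0.491% of all genes tested. BMP ligands, hedgehog genes, complement and small leucine-rich proteoglycans have medians below 0.

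Genes of the crypt axis, only some of them named by the study, were followed in the same sums. Of 18 tested genes of subepithelial and crypt top fibroblasts, edgeR called 1, *Ptgs1*, higher in cluster 7 and 0 lower, with a median fold change of -0.36 beside -0.12 over all genes tested. DESeq2 on the plate sums called 4 of the list, beside 6.06% of genes with an adjusted p. Of the 19 tested over strains, 3 had an unadjusted p under 0.05, beside 7.17% of all genes tested. *Tnc*, tenascin C, had 11.8, 6.97 and 32.05 in cluster 7 and 59.4, 48.4 and 109.4 in cluster 5. It was lower in cluster 7 in each strain without overlap, and was not called (log2 fold change -2.16 ± 0.69 (SE), adjusted p = 0.292). *Foxl1*, a transcription factor of subepithelial cells, had mean levels of 0.503 against 0.812, and both are near 0. *Pdgfrb* had 70.9, 61.7 and 163.3 in cluster 7 and 85.99, 93.4 and 226.6 in cluster 5 and was not called (log2 fold change -0.11 ± 0.13 (SE), adjusted p = 0.872). *Acta2* and *Cspg4*, whose promoters drive reporters in this study, had 90.96, 11.03 and 30.6 in cluster 7 and 85.3, 24.3 and 59.02 in cluster 5 and 8.14 against 18.03 in the means, also not called.

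Levels in the other fibroblast clusters, which the study orders from 7 and 5 over 1 and 6 to 2 at the surface, separate several patterns. Of the 68 genes higher in cluster 7, 60 had their highest mean level of the 5 clusters there, and 41 were lower in clusters 1, 6 and 2 than in cluster 5. *Efhd1* had 1.697, 0.966 and 0.669 in clusters 1, 6 and 2, *Npy1r* 2.17, 2.03 and 1.12 in clusters 1, 6 and 2 and *Pi16* 35.1, 11.9 and 13.98 in clusters 1, 6 and 2. Of the 72 genes lower in cluster 7, 35 peaked in cluster 5, while for 19, 11 and 7 of them the peak was in clusters 1, 6 and 2, respectively. Cluster 6 means rest on 2 strains and the others on 3. These counts follow in part from how the genes were called and were not tested.

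*Gdf10* (6.27, 2.38 and 7.38 in clusters 1, 6 and 2), *Penk* (34.8, 21.6 and 56.4 in clusters 1, 6 and 2), *Gas1* (4.85, 0.346 and 3.16 in clusters 1, 6 and 2) and *Cilp* (83.4, 158.8 and 35.1 in clusters 1, 6 and 2), an intermediate layer protein of cartilage with 760 against 1280 in clusters 7 and 5, were highest in cluster 5. *Grem1* had 267.4, 2.77 and 6.28 in clusters 1, 6 and 2, and *Apoe* 233.3, 19.3 and 22.6 in clusters 1, 6 and 2, so that both stayed high in cluster 1. *Sfrp1* (556, 11.1 and 43.4 in clusters 1, 6 and 2) and *C1qtnf3* (650, 15.4 and 35.1 in clusters 1, 6 and 2) were highest in cluster 1. *Wnt2*, with 30.4, 1.11 and 0.816 in clusters 1, 6 and 2, was lower in cluster 5 than on either side of it in this order. *Bmp4* was higher in all 3 other clusters, with 807, 988 and 784 in clusters 1, 6 and 2.

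**Figure D5:**
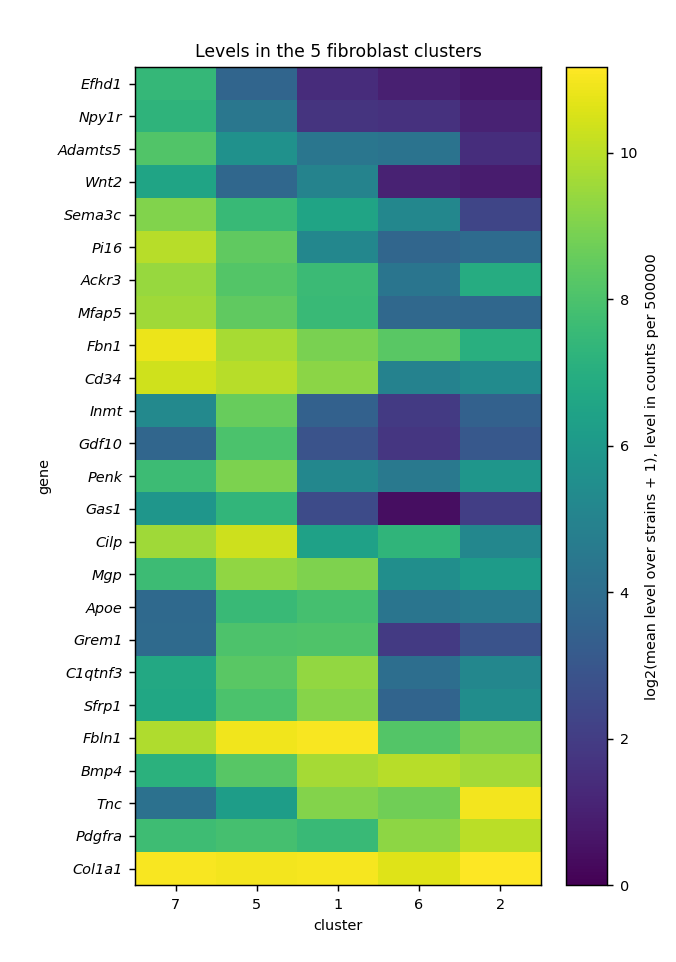
Levels of 25 genes in the 5 fibroblast clusters, as log2 of the mean level over strains plus 1 (colour), with clusters ordered 7, 5, 1, 6 and 2 on the x axis. Means use the 3 strains, or 2 for cluster 6. The upper genes are brightest in cluster 7, *Inmt* to *Mgp* are brightest in cluster 5, and *Col1a1* is bright in all 5.

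No difference between strains in the contrast was found with edgeR. The interaction of cluster and strain, tested on 2 Acta2GFP and 2 PdgfrbGFP plates, called 0 (0%) of 16678 genes, with 695 at an unadjusted p under 0.05, while DESeq2 called 15 and 53 genes by direction. With 2 plates a strain, this test can miss differences. Immediate early genes gave no call either on plates: of 16 tested, edgeR called 0 higher and 0 lower, with a median of -0.31. At a mean level of 20 or more, the strain test called 7 of the 16 lower, beside 1.53% of all genes at that level. Over strains 13 of the 16 had an unadjusted p under 0.05, beside 7.17% of all genes, and DESeq2 on plates called 1, beside 6.06% of genes with an adjusted p. *Fos* had 553, 645 and 647 in cluster 7 and 932, 751 and 1095 in cluster 5 and *Egr1* 710, 1029 and 919 in cluster 7 and 1148, 1121 and 1227 in cluster 5, lower in cluster 7 in each strain. In the fit without PdgfrbGFP plate 2, where these genes were highest, the counts were 30 higher and 32 lower.

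The share of cells in each cluster was also counted per strain, with no test between strains. Cluster 7 made up 26.3% of the fibroblasts of the Acta2GFP strain (95% Clopper-Pearson interval 22.4 to 30.5), 6.67% of those of the PdgfraGFP strain (3.78 to 10.8) and 13.3% of those of the PdgfrbGFP strain (10.6 to 16.4). For cluster 5 the shares were 26.5%, 28.4% and 38.5%. The Cspg4dsRED strain, with 28 fibroblasts, had 17.9% (6.06 to 36.9) in cluster 7 and 46.4% (27.5 to 66.1) in cluster 5. Each strain counts as 1 sample, and the intervals cover counting error only. The sorts and, for Acta2GFP, the elastase can set these shares, so strain and recovery cannot be told apart.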

How the data were processed

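Reads of 1646 colon cells (SmartSeq2, 4 reporter strains, 9 plates) were mapped by the authors to GRCm38 (mm10) with TopHat2 and counted with featureCounts, by their methods and processing notes, and they deposited raw counts per gene and cell. The methods state that doublets were removed with samtools and that cells with very many genes were removed, and no doublet caller was run here. Neither library nor counting is stated to use strand, so overlapping genes are uncertain. The 92 ERCC rows, 1.13% of the counts of the 648 cells of clusters 7 and 5, were left out, and symbols and positions came from GENCODE vM21.

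Counts were summed per strain and cluster (7459252 to 85478239 counts a sum) or per plate and cluster (3982444 to 35712771), filtered with filterByExpr, scaled with TMM and tested with edgeR 4.0.16 (quasi-likelihood, R 4.3.3) with strain or plate as a block, Benjamini-Hochberg adjustment and a threshold of 0.05. SEs came from dividing a log2 fold change by the root of its F statistic. Same-strain sums of the 2 clusters deviated together (r = 0.144, 0.153 and 0.186), so they were paired. DESeq2 1.42.0 and limma 3.58.1, which used log2 of the mean level plus 1, were alternatives, as were other filters, scalings and sample sets. Levels are means over cells of counts per 500000. Shares of cells with a count used cells thinned to 50000 counts, which left out 4 of the 648, with exact Clopper-Pearson 95% intervals. Without molecular identifiers, intervals cover counting error only. Tables were computed with Python.

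The comparison, members and gene lists were chosen with earlier results of these data known. The planned rule named, among genes called over strains, the 15 most changed per direction with a level of 20 or more in the higher cluster and 1 direction in all 3 strains, up to 4 called genes of each list (the 2 most abundant where fewer than 2 were called), and the genes the study names for the crypt axis. No gene was called over strains, so calls on plates took their place, and some genes were left out for room. Other genes named were chosen after their values were seen. A few genes are not reported here.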

Additional observations from a re-analysis of the deposited data

Results flagged for a closer look

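Among the named genes with a level of 20 or more, 5 (4.24%) had a plate whose log2 ratio of levels (cluster 7 over cluster 5) lay far from those of the other 4 plates by Dixon's criterion, which flags about 1 in 20 groups by chance, so the number is near the chance rate. On the PdgfraGFP plate, which held 11 cells of cluster 7, *Wnt2* had 5.06 against 1.90 to 2.52 on the others, *Rspo3* -3.79 against -0.11 to 0.76, and *Tmem204* -0.55 against -3.36 to -2.67. On PdgfrbGFP plate 1, *Postn* had 0.61 against 0.96 to 1.05, and *Crispld2* -0.76 against -1.80 to -1.52. *Rspo3* also had opposite signs in the strains, with a mean log2 ratio of -0.09 on the Acta2GFP plates and 0.40 on the PdgfrbGFP plates. This difference of -0.49 in levels was not tested as such, and edgeR's interaction of cluster and strain did not call the gene (adjusted p = 1.00).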

How the results depend on the processing

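Over strains, edgeR called 0% of genes higher and 0% lower in cluster 7. All shares for DESeq2 are of genes with an adjusted p. Other settings called more: DESeq2 0.705% higher and 2.12% lower, no filter on low counts 0.0802% and 0.0656%, limma on the mean of cells 0.141% and 0.161%, all 5 fibroblast clusters in 1 fit 0.0159% and 0.0159%, and genes at a mean level of 20 or more, chosen after the data were seen, 0.833% and 1.53%. Without the pairing of the strains (no replicate block) it was 0.0129% and 0.0129%, and with plates as samples and plate as the block 0.491% and 0.52%. Library totals without TMM, and adding the Cspg4dsRED strain, gave 0% and 0%. Leaving out 1 strain gave 0 to 0.00607% higher and 0 to 0.0121% lower, with genes called only without PdgfraGFP. On plates, in fits added after the data were seen, DESeq2 called 1.78% and 4.28%, and dropping the block gave 0.311% and 0.339%. Leaving out 1 plate gave 0.178 to 0.394% higher and 0.0743 to 0.497% lower. The interaction called 0% with and without the filter, and 0.105% and 0.373% by direction with DESeq2. The causes were not tested.

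Among 57 genes whose fold change or p is given, dropping the block added 3 calls over strains, and on plates it added 2 and removed 16. The genes that changed sign were called in neither setting. *Gli1*, at 0.07 ± 0.32 over strains, had -0.07 without the block, -0.48 on plates with plate as the block, -0.30 with limma, -0.01 at a level of 20 or more and -0.20 to 0.38 without 1 strain. *Rspo3* had 0.47 with Cspg4dsRED, -0.49 to 0.06 without 1 strain and, on plates, -1.16 to 0.10 without 1 plate. *Ptgs2* on plates had 0.09 without the block and -0.29 to 0.20 without 1 plate. Levels from summed counts moved beyond 1 SD in 11.5% of values, and shares of cells without thinning beyond their interval in 82.7%. Low genes rest on few counts: *Rspo1* had 2 to 14 in a cluster 7 sum.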

Other observations

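Some genes named by no list above also differed on plates. *Axl*, a receptor tyrosine kinase for GAS6, had levels of 1302, 1112 and 1206 in cluster 7 and 666, 845 and 716 in cluster 5 (log2 fold change 0.79 ± 0.08 (SE), adjusted p = 0.00615), and its ligand *Gas6* had 58.6, 135.9 and 91.1 in cluster 7 and 150, 120 and 268.6 in cluster 5 (log2 fold change -1.24 ± 0.19 (SE), adjusted p = 0.0314). The receptor was called higher and the ligand lower in cluster 7, although *Gas6* was higher in cluster 7 of the PdgfraGFP strain. *Cd248*, the endosialin of mesenchymal cells, had 1403 ± 139.2 in cluster 7 and 820 ± 72.05 in cluster 5 (SD, n = 3 strains), and *Lrrn4cl* 351.9 ± 41.1 in cluster 7 and 139.2 ± 34.7 in cluster 5. *Dbn1*, an actin-binding drebrin, had 397.9 ± 57.4 in cluster 7 and 170 ± 45.7 in cluster 5. *Plpp1*, a lipid phosphatase, was lower in cluster 7 with 72.8 ± 9.36 in cluster 7 and 190 ± 28.1 in cluster 5, as was *Pid1*, an adaptor of insulin signalling, with 167.01 ± 29.6 in cluster 7 and 498 ± 90.9 in cluster 5. *Axl*, *Lrrn4cl*, *Dbn1*, *Plpp1* and *Pid1* were called by edgeR in each of the 5 fits without a plate, *Cd248* in 4 and *Gas6* in 1.

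Genes of low level were called too. *Cacna1g*, a calcium channel subunit, *Gabrb1*, a GABA receptor subunit, and *Slit2*, a guidance ligand, were called lower in cluster 7 with mean levels of 0.0368 against 9.04, 0.0476 against 5.61 and 0.567 against 9.13. *Slit3*, its relative, had 460 against 487 and was not called. *Fam167a* was called higher with 6.97 against 0.139, and both PdgfraGFP sums of it were at 0. Each of these called genes was near 0 in the cluster with the lower level. It entered the test mainly through its counts in the other cluster, so the size of its difference is uncertain.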
